A study of Mus musculus with 5 samples.

Results

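miR-31 is a microRNA (miRNA), a short RNA that guides Argonaute proteins to matching messenger RNAs and lowers their output. It was followed by its own name in tables of small RNA sequence tags, as the single name mmu-miR-31 out of 593 mouse miRNA names with a count in any of 5 libraries. It gathered 167 distinct tags. It was chosen with its high level in the cultured cells known, so its values there are a description. The 3 groups were a culture (1 library), a Thy1+ fraction (2 libraries) and a Thy1- fraction (2 libraries), all from testes of C57BL/6 mice. Thy1+ cells were those a magnetic separation with an antibody against Thy1.2 retained, which enriches spermatogonial stem cells, the self-renewing cells at the start of sperm production. The Thy1- cells were what that separation left, named by the titles as enriched for somatic cells, although their cell type label repeats the stem cell name. The culture consisted of germ cells grown from Thy1+ cells for about 10 passages. No ages or genotypes are given, and the labels do not tie replicates to different mice, so each p reflects only how far these libraries differ.

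The miRNA counts were 5110007 in the culture, 937002 and 947687 in the Thy1+ libraries, and 2548234 and 4909753 in the Thy1- libraries. Only tags placed on miRNAs are in the tables, so these totals are not whole sequencing depths. White blood cell miRNAs were present in all libraries, their 5 listed members summing to 937 counts per 1000000 miRNA counts (CPM) in the culture, 14904 and 26540 in the Thy1+ libraries, against 2017 and 1346 in the Thy1- libraries. In such bulk samples, a different share of cells and a different level per cell cannot be told apart.

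A miRNA hairpin is cut to a short duplex, of which the main strand is usually loaded and the other strand, marked with an asterisk, is mostly lost. Bases 2 to 8 of the mature strand form the seed, which does most of the pairing to targets, so a shift of the 5′ end changes the targets while the 3′ end is often trimmed or extended without changing them. miR-31 is known from epidermis and wound repair, from intestine and mammary stem cells and from many cancers, in which it has been described both as promoting and as limiting spread. Its hairpin and both strands are shown because all later results refer to their ends. Sequences are from RefSeq on GRCm38.p6, written 5′ to 3′. Capitals mark the seed in the mature strands, and in the hairpin they mark both mature strands.
miR-31: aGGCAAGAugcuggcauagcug
miR-31*: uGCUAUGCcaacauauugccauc
Mir31 hairpin: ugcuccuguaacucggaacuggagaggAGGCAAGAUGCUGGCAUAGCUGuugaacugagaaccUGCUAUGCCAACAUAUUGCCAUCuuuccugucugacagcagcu
The hairpin of 106 bases lies on chromosome 4 on the minus strand, at chr4:88910557-88910662. miR-31 lies at chr4:88910614-88910635 and miR-31* at chr4:88910577-88910599. In the GENCODE annotation of GRCm38, the hairpin sits within an exon of the long intergenic RNA AL805899.1 (88909855 to 88938521, minus strand). The most common tag of each strand equalled the RefSeq sequence with T for U. None of 1679 mature mouse names in the RefSeq table shared the seed of miR-31, GGCAAGA, or that of miR-31*, GCUAUGC, with them, so there is no seed family to group them with.

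miR-31 was most abundant in the culture. It stood at 819 CPM of miRNA counts there (95% Poisson interval 794 to 844), at 128 (106 to 153) and 338 (302 to 377) CPM in the Thy1+ libraries, and at 99.3 (87.4 to 112) and 52.3 (46.1 to 59.2) CPM in the Thy1- libraries. These values rest on 4184 counts in the culture, 120 and 320 in Thy1+, and 253 and 257 in Thy1-. The culture lay above all 4 fresh libraries, and both Thy1+ libraries lay above both Thy1- libraries, with the lower Thy1+ value close to the higher Thy1- value. All intervals cover counting error only, and counts of amplified reads are not independent molecules. By rank, miR-31 was number 80 of 510 detected miRNAs in the culture, number 220 of 534 and 171 of 535 in Thy1+, and number 215 of 530 and 237 of 543 in Thy1-.

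**Figure D1:**
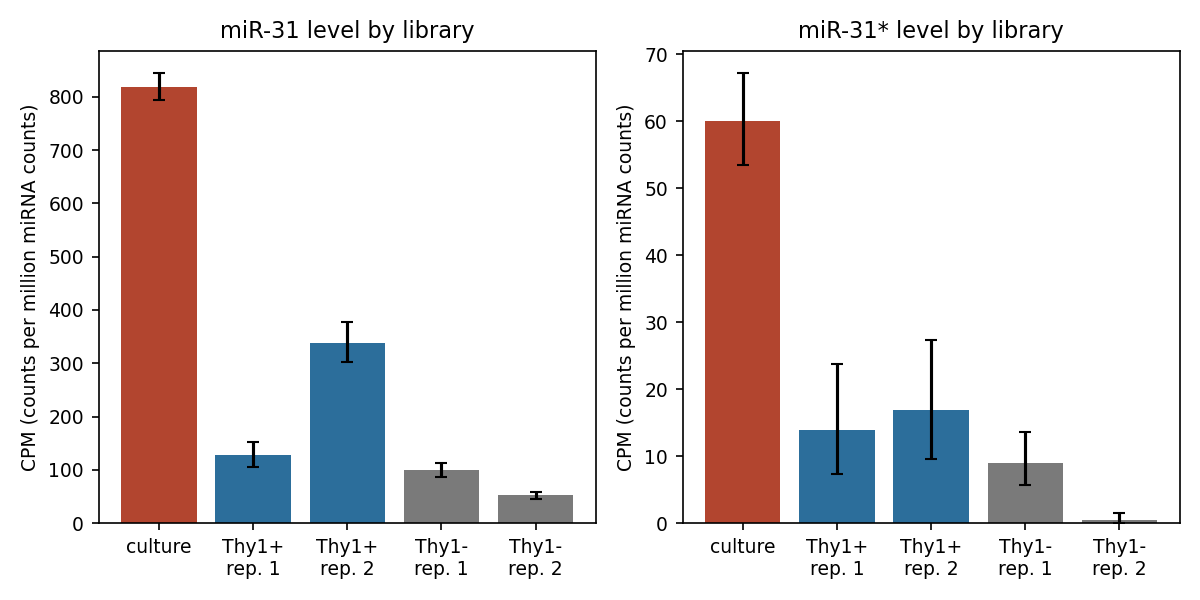
Levels of miR-31 (left) and miR-31* (right) in CPM of miRNA counts, 1 bar per library, with 95% Poisson intervals as error bars. The culture is highest for both strands, at 819 CPM and 60.1 CPM.

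As a ratio of CPM, the culture was 6.39 and 2.42 times the Thy1+ libraries and 8.25 and 15.6 times the Thy1- libraries. The smallest of these ratios was against Thy1+ replicate 2, the fresh library richest in miR-31. In an edgeR fit of all 5 libraries with TMM scaling, which sets the bulk of miRNAs level between libraries, the log2 fold change was 3.52 (SE 0.70) for culture against Thy1+ and 4.52 (SE 0.72) for culture against Thy1-. The single culture library is assumed there to vary like the fresh ones, and no p is given because miR-31 was chosen on this contrast. With scaling to total miRNA counts, the 2 values were 1.81 and 3.43. Over all 470 miRNAs the median log2 value shifted with that scaling too, to -1.73 from -0.09 for culture against Thy1+ and to -1.19 from -0.15 for culture against Thy1-. Of those miRNAs, 97.2% had a smaller fold change than miR-31 for culture against Thy1+ and 97.0% for culture against Thy1-, and 97.0% did in both under total scaling. Among all miRNAs, 22.3% were called in the comparison of culture with Thy1+ and 34.9% in that of culture with Thy1- (edgeR adjusted p under 0.05).

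Between the fresh fractions, miR-31 did not pass the test. It averaged 233 ± 148 CPM in Thy1+ and 75.8 ± 33.2 CPM in Thy1- (SD, n = 2 each). The log2 fold change was 1.04 (SE 0.60), with an edgeR quasi-likelihood adjusted p of 0.225 over 425 miRNAs and an unadjusted p of 0.123. In the same comparison 28.2% of miRNAs were called, and 69.9% had a smaller log2 fold change than miR-31. The value rested largely on Thy1+ replicate 2, and was 0.42 without it (adjusted p = 0.660). Across the other alternatives it ranged up to 1.62, and no adjusted p fell below 0.114. With 2 libraries a group, the difference was not larger than the spread between replicates could give.

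The second strand was also highest in the culture. miR-31* had 307 counts in the culture, 13 and 16 in Thy1+, and 23 and 2 in Thy1-. These counts were 60.1 CPM in the culture, 13.9 and 16.9 in Thy1+, and 9.03 and 0.407 in Thy1-. Thy1- replicate 2 stood far below the rest, at a count so small that its interval spans 0.0493 to 1.47 CPM. The log2 fold change was 3.62 (SE 1.03) for culture against Thy1+ and 4.92 (SE 1.07) for culture against Thy1-, given without a test for the same reason as for miR-31. Total count scaling gave 1.96 and 3.77 for these, and leaving out a library gave 3.31 to 3.62 against Thy1+ and 3.92 to 7.76 against Thy1-, the highest value being without Thy1- replicate 1. For Thy1+ against Thy1- it was 1.34 (SE 1.02, edgeR adjusted p = 0.348). Without Thy1- replicate 1 that comparison rests on the 2 counts of the other library, and gave 4.54 (adjusted p = 0.00805).

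The share of the asterisk strand in the culture lay within that of the fresh libraries. miR-31* made up 6.84% (95% exact interval 6.11 to 7.61) of the counts of both strands in the culture. It made up 9.77% (5.31 to 16.1) and 4.76% (2.75 to 7.62) in Thy1+, and 8.33% (5.36 to 12.2) and 0.772% (0.0937 to 2.76) in Thy1-. The value of Thy1- replicate 2 was far below the other 4. Thy1+ exceeded Thy1- by 2.72 percentage points (7.27% ± 3.54 and 4.55% ± 5.35, SD, n = 2 each). A two-sided exact permutation test gave p = 0.667, where 2 against 2 libraries cannot go below 0.33. The sign turned to -1.07 points without Thy1- replicate 2.

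Most miR-31 counts came from a few forms that share the 5′ end. Of the 167 tags, 7 were found in all 5 libraries and held 92.2% of miR-31 counts in the culture, 95.0% and 91.3% in Thy1+, and 88.5% and 89.5% in Thy1-. Another 119 tags occurred in a single library, and 143 of the 167 were seen in the culture, which had by far the most counts. The 5 tags with the highest mean share are printed below, since they show that the forms differ at the 3′ end. Capitals mark the seed, except in the last, where the capital marks the base that differs from the mature sequence.
annotated form: aGGCAAGAtgctggcatagctg
21-base form: aGGCAAGAtgctggcatagct
20-base form: aGGCAAGAtgctggcatagc
19-base form: aGGCAAGAtgctggcatag
G22A form: aggcaagatgctggcatagctA
In the last name, the letters give the mature base, its position from 1 at the 5′ end, and the tag's base. The annotated form had 2395 counts in the culture, 76 and 176 in Thy1+, and 136 and 118 in Thy1-. The 21-base form followed with 981 counts in the culture, 29 and 83 in Thy1+, and 62 and 71 in Thy1-. In CPM the annotated form stood at 469 in the culture, 81.1 and 186 in Thy1+, and 53.4 and 24.0 in Thy1-, the same order as for all miR-31 tags together.

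Placement was re-read from each tag, and a tag beginning with an unread base (N) was moved back to its true start. Tags without mismatch and at the annotated ends, such tags included, made up 57.9% of miR-31 counts in the culture, 63.3% and 55.9% in Thy1+, and 54.9% and 45.9% in Thy1-. All placements lay inside the annotated mature sequence, so forms longer at the 3′ end were not analysed here.

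**Figure D2:**
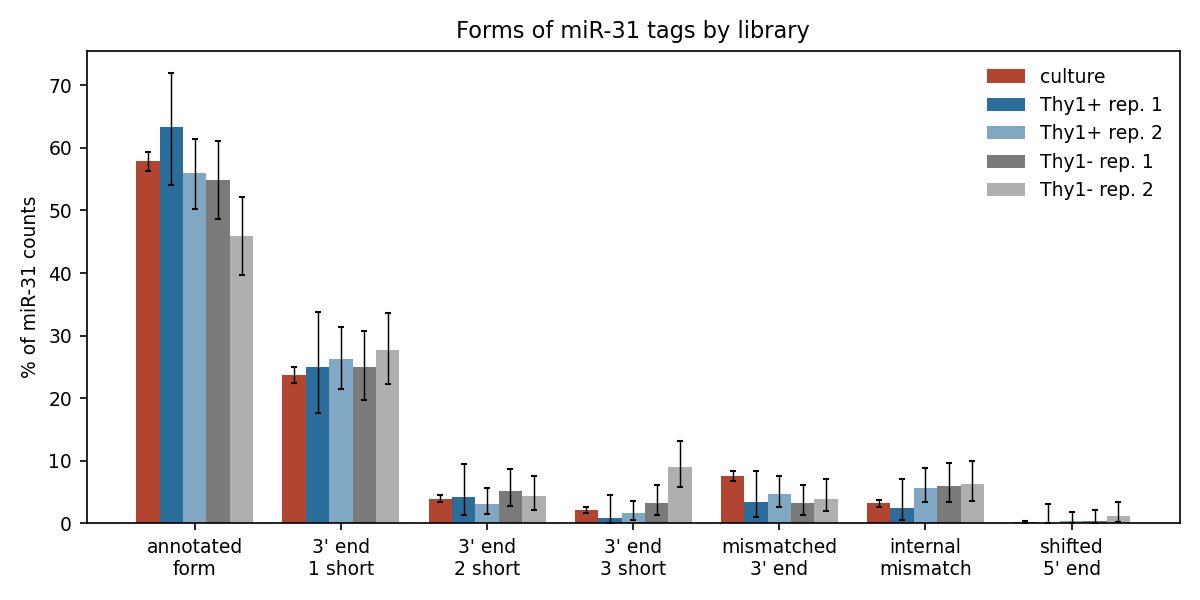
Share of miR-31 counts (%) in 7 forms, with 1 bar per library and 95% exact binomial intervals. The annotated form leads in every library, the form missing 3 bases at the 3′ end is highest in Thy1- replicate 2 (8.95%), and tags with a mismatched 3′ end are highest in the culture (7.50%).

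The 5′ end of miR-31 was nearly uniform. Tags with a shifted start held 0.167% of counts in the culture (7 of 4184), 0 of 120 and 0.313% (1 of 320) in Thy1+, and 0.395% (1 of 253) and 1.17% (3 of 257) in Thy1-. The 95% exact interval of the 0 of 120 reaches up to 3.03%. Over 241 miRNAs with at least 50 counts in every library, the median share of shifted starts was 1.39% in the culture, 1.33% and 1.84% in Thy1+, and 1.41% and 1.90% in Thy1-. The observed share of miR-31 was below the median in all 5 libraries, although the limit on the 0 of 120 lies above the median of that library. In the culture 14 of the 241 miRNAs had a lower share. For Thy1+ against Thy1-, limma on the logit of the share gave a difference of -0.72 (SE 0.39, adjusted p = 0.825). This difference rests on 3 shifted counts or fewer in each fresh library, with an offset of 0.5, so its direction is not settled. With mismatched tags left out it was 0.80 (limma adjusted p = 0.959). In this test 0% of the 241 miRNAs were called, and 19 had an unadjusted p under 0.05.

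The 3′ end varied more. Tags shorter at the 3′ end made up 34.1% of counts in the culture, 33.3% and 37.2% in Thy1+, and 40.7% and 49.8% in Thy1-. The culture lay within the range of the Thy1+ libraries, and both Thy1- libraries were higher. Thy1+ averaged 35.3% ± 2.73 and Thy1- 45.3% ± 6.43 (SD, n = 2 each). The logit difference was -0.41 (SE 0.22, limma adjusted p = 0.651), in a test that called 0% of 241 miRNAs, with 17 at an unadjusted p under 0.05. An exact permutation test of the shares gave p = 0.33, the smallest it allows. The median miRNA was 28.8% short in the culture, 30.8% and 28.8% in Thy1+, and 33.9% and 35.3% in Thy1-, so shares of short tags were somewhat higher in Thy1- over all miRNAs too.

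Loss of a single base was the most common 3′ change in all 5 libraries. Tags missing only the last base, with no mismatch, held 23.7% in the culture (22.4 to 25.0), 25.0% and 26.2% in Thy1+, and 24.9% and 27.6% in Thy1-. Tags missing 2 bases held between 3.12% and 5.14% in the 5 libraries. Tags missing 3 bases held 2.08% (1.67 to 2.56) in the culture, 0.833% and 1.56% in Thy1+, and 3.16% and 8.95% in Thy1-. Thy1- replicate 2 stood apart for this 19-base form, with an interval of 5.76% to 13.1% that lay above the values of the other 4 libraries, and its own replicate did not share the level.

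Mismatched tags showed a different picture at the 3′ end and inside the sequence. All tags with a mismatch made up 10.7% of miR-31 counts in the culture, 5.83% and 10.3% in Thy1+, and 9.09% and 10.1% in Thy1-. Thy1+ and Thy1- overlapped, and the culture lay slightly above all 4 fresh libraries. The logit difference for Thy1+ against Thy1- was -0.21 (SE 0.30, limma adjusted p = 0.999), in a test that called 1.24% of 241 miRNAs. Tags whose mismatches lay only at the last base or bases, a class set apart after the values had been seen, held 7.50% (6.72 to 8.35) in the culture, 3.33% and 4.69% in Thy1+, and 3.16% and 3.89% in Thy1-. The culture was above all 4 fresh libraries, though the interval of Thy1+ replicate 2 (2.65 to 7.61) and of Thy1+ replicate 1 (0.916 to 8.31) reached its value. Tags with an internal mismatch did not follow, at 3.15% in the culture, 2.50% and 5.63% in Thy1+, and 5.93% and 6.23% in Thy1-.

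The 2 most frequent substitutions in the culture were at the last base. G22A was present in 3.59% of counts in the culture (150 counts), 0.833% and 1.56% in Thy1+, and 0.395% and 1.17% in Thy1-. G22T was at 2.03% in the culture, 0.833% and 2.19% in Thy1+, and 0.791% and 0.389% in Thy1-, so for it the culture lay inside the range of the Thy1+ libraries. T21A reached 1.70% in the culture, 1.67% and 0.625% in Thy1+, and 0.395% and 0 in Thy1-. Positions 20 to 22 held 76.5% of the 507 mismatched bases in the culture, 5 of 7 and 17 of 34 in Thy1+, and 11 of 27 and 11 of 32 in Thy1-. The seed, positions 2 to 8, held 9.86% of them in the culture, 0 of 7 and 6 of 34 in Thy1+, and 7 of 27 and 6 of 32 in Thy1-. The substitution percentages are over all miR-31 counts, and tags shorter at the 3′ end lack some of positions 20 to 22. Such tags held 34.1% in the culture, 33.3% and 37.2% in Thy1+, and 40.7% and 49.8% in Thy1-. The part of tag length in these values was not tested. A G22A tag reads the same as the 21-base form with an A added, and counts cannot tell these apart.

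Against other miRNAs the excess of mismatched 3′ ends in the culture was in the upper part of the range. For miR-31 the culture exceeded the mean of the 4 fresh libraries by 3.74 percentage points (7.50%, against 3.77% ± 0.69, SD, n = 4), and the median over 241 miRNAs was 0.17 points. This difference ranked number 22 of 241. Of these miRNAs, 34.0% had a culture value above all 4 fresh values, so miR-31 was among 82 with that order.

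The 5′ end of miR-31* was less uniform than that of miR-31, in a pattern noticed after the values had been seen and given as a description. Its 2 leading starts are printed because they carry different seeds, in capitals.
miR-31*: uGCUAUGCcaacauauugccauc
miR-31* starting 1 base in: gCUAUGCCaacauauugccauc
Tags that began 1 base in made up 5.54% of miR-31* counts in the culture (17 of 307, 95% exact interval 3.26 to 8.72). They made up 38.5% (5 of 13, 13.9 to 68.4) and 37.5% (6 of 16, 15.2 to 64.6) in Thy1+, and 39.1% (9 of 23, 19.7 to 61.5) and 2 of 2 counts in Thy1-. All 4 fresh libraries were above the culture, and their intervals did not reach it, although each rests on 23 counts or fewer. In CPM, the full-length tag that starts 1 base in stood at 3.13 in the culture, 5.34 and 6.33 in Thy1+, and 2.35 and 0.204 in Thy1-. The tag with the annotated start stood at 35.2 CPM in the culture, 7.47 and 6.33 in Thy1+, and 4.71 and 0 in Thy1-. No other name in the RefSeq table had the shifted seed, CUAUGCC.

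**Figure D3:**
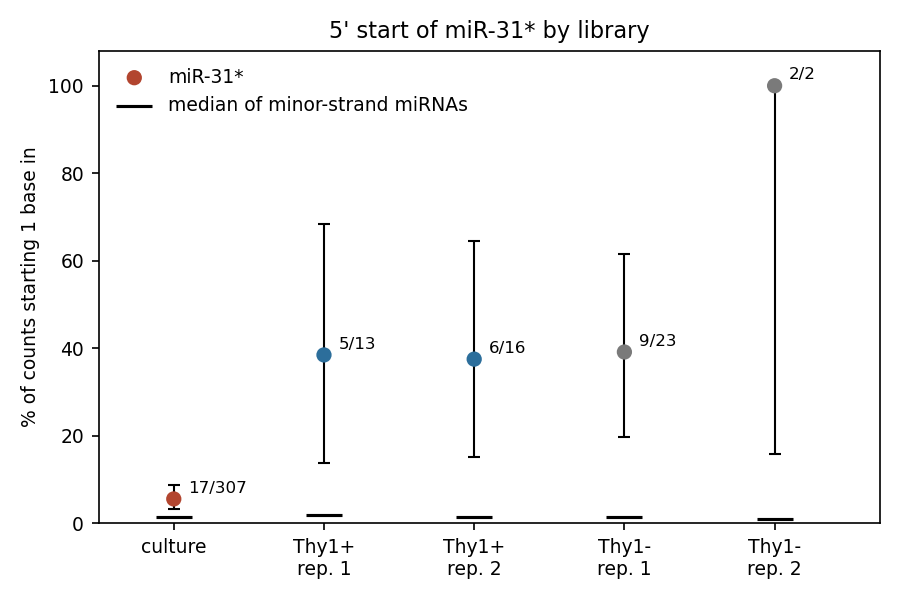
Share (%) of miR-31* counts in tags that begin 1 base inside the annotated start, per library, with 95% exact binomial intervals and the counts beside each point. The culture (17/307) lies below all 4 fresh libraries, and black dashes give the median of 56 other minor strands.

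Among 56 other asterisk strands with at least 10 counts in every library, the median share starting 1 base in was 1.42% in the culture, 1.94% and 1.41% in Thy1+, and 1.35% and 1.01% in Thy1-. Among 344 miRNAs with at least 10 counts in the culture and in the 3 fresh libraries other than Thy1- replicate 2, the culture minus fresh difference of miR-31* was -32.8 points. It was the lowest of these, and the number 2 in size. For comparison, 326 of the 344 differed by less than 10 points, with a median of -0.04 points.

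Neighbours on the chromosome gave no like level. The nearest other miRNA gene, Mir491, lies 788.4 kb away on the plus strand (chr4:88122040-88122125) in an intron of Focad. miR-491 had 13 counts in the culture, 1 and 4 in Thy1+, and 13 and 4 in Thy1-. These are 2.54 CPM in the culture, 1.07 and 4.22 in Thy1+, and 5.10 and 0.815 in Thy1-, with no order between the groups. Its log2 fold change was 1.60 (SE 1.24, edgeR adjusted p = 0.392) for culture against Thy1+ and 1.00 (SE 1.09, adjusted p = 0.502) for culture against Thy1-, on the TMM scale. Under total scaling these were -0.06 and -0.10. In the comparison of Thy1+ with Thy1- it did not pass the filter on low counts. Without that filter its log2 fold change there was -0.63 (SE 1.16, edgeR adjusted p = 0.751). Among protein-coding genes, Ifne, an epithelial interferon, lies 30.4 kb from the hairpin, Mtap, an enzyme of methionine salvage, 226.5 kb, and the cell cycle inhibitors Cdkn2a and Cdkn2b 363.8 and 395.6 kb. No transcripts of these genes were measured.

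Other miRNAs had profiles close to that of miR-31. Likeness was the root mean square difference of log2(CPM + 1) over the 5 libraries, each profile centred on its own mean, among 385 miRNAs with a mean of at least 10 CPM. The 5 nearest were miR-221 (0.37), miR-21 (0.46), miR-23a (0.56), miR-335-5p (0.65) and miR-146b (0.70), where the median was 1.91. miR-31* came out at 0.76. With 5 points of 3 groups, 1 library weighs heavily, and the values below were selected for likeness and are a description.

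miR-221, which targets cell cycle inhibitors in several cell types, stood at 1803 CPM in the culture, 264 and 438 in Thy1+, and 144 and 136 in Thy1-. miR-21, abundant in many proliferating and stressed cells, stood at 118931 CPM in the culture, 27553 and 32738 in Thy1+, and 11709 and 11526 in Thy1-. Both had the order of miR-31, culture over Thy1+ over Thy1-. miR-23a stood at 1148 CPM in the culture, 391 and 418 in Thy1+, and 217 and 171 in Thy1-. For miR-335-5p, made within the imprinted Mest gene, the values were 2064 CPM in the culture, 271 and 732 in Thy1+, and 480 and 337 in Thy1-. Its fresh fractions overlapped, while its Thy1+ replicates differed in the same direction as those of miR-31. miR-146b, a regulator of innate immune signalling, stood at 6885 CPM in the culture, 1362 and 998 in Thy1+, and 439 and 198 in Thy1-.

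**Figure D4:**
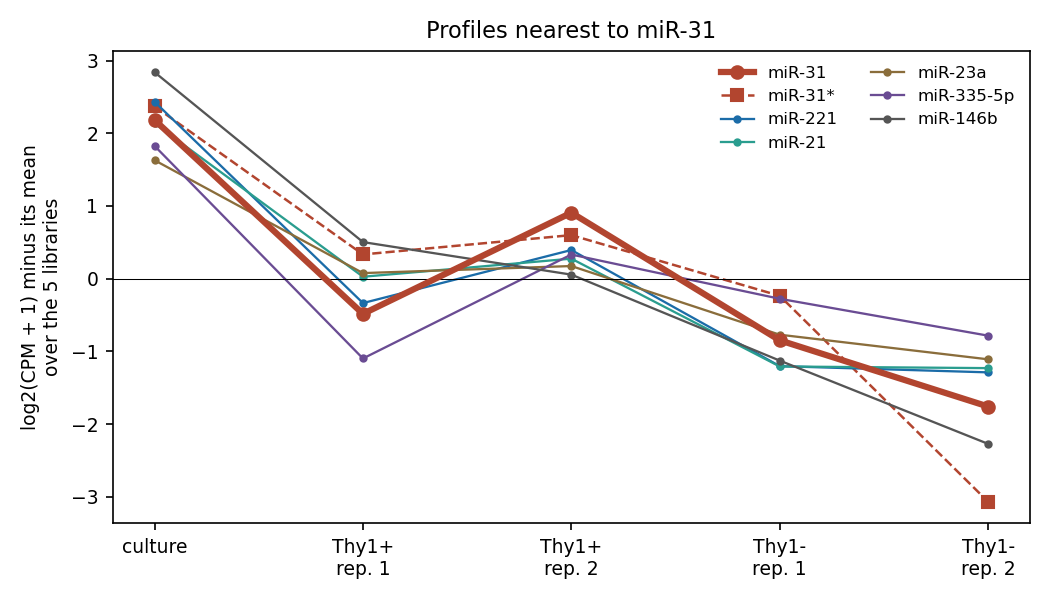
Profiles of miR-31, miR-31* and the 5 nearest miRNAs over the 5 libraries, as log2(CPM + 1) minus each miRNA's own mean, 1 point per library. All 7 are highest in the culture, and miR-31* falls away in Thy1- replicate 2, where it had 2 counts.

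Lists of related miRNAs and of cell type markers are read against the shares of all miRNAs called (edgeR adjusted p under 0.05). In culture against Thy1+ these were 8.94% higher and 13.4% lower with TMM scaling, and 1.91% higher and 34.9% lower with total count scaling. In culture against Thy1- they were 18.1% higher and 16.8% lower with TMM scaling, and 7.23% higher and 25.7% lower with total count scaling. In Thy1+ against Thy1- they were 20.5% higher and 7.76% lower with TMM scaling, and 25.9% higher and 2.59% lower with total count scaling. Counts below are with TMM scaling unless total scaling is named. Leaving out either Thy1+ library left no call for any miRNA in culture against Thy1+, or in Thy1+ against Thy1-.

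Of the proliferation-linked list, 10 miRNAs often described beside miR-31 in cancer and wound studies, 5 rose and 0 fell in the culture against Thy1+ (median log2 1.69, against -0.09 for all miRNAs). Those that rose were miR-21, miR-221, miR-222, miR-146b and miR-210, a miRNA of low oxygen. miR-222, the partner of miR-221 on the same transcript, stood at 435 CPM in the culture, 80.0 and 51.7 in Thy1+, and 14.1 and 22.4 in Thy1- (log2 4.35 for culture against Thy1+, SE 0.73, edgeR adjusted p = 0.0105). miR-20a, from the miR-17 cluster known for promoting the cell cycle, stood at 2607 CPM in the culture and at 19554 and 16078 CPM in Thy1+ (log2 -1.14, SE 0.62, edgeR adjusted p = 0.208). Under total scaling 4 of the 10 rose (background 1.91%) and 4 fell (background 34.9%). Those that fell were miR-17, miR-20a, miR-19b and miR-92a, all products of the miR-17 cluster and its copies, in a share close to that of all miRNAs. Against Thy1-, 5 of 10 rose and 0 fell (median 2.93, against -0.15 for all), or 5 and 3 under total scaling. Between Thy1+ and Thy1-, 1 of 10 rose and 0 fell, and 4 rose and 0 fell under total scaling. The member that rose on the TMM scale was miR-155, which is also a white blood cell miRNA, and under total scaling miR-21, miR-222 and miR-146b rose as well. The members that rose in the culture include 3 of the 5 nearest profiles, so the counts and the likeness are not separate observations.

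Of the differentiation-linked list, 3 of 8 rose and 0 fell in the culture against Thy1+ (median 1.29), and 1 rose and 1 fell under total scaling. The 3 were let-7a, let-7f and miR-143. let-7f stood at 123548 CPM in the culture, 43000 and 42916 in Thy1+, and 122582 and 78438 in Thy1-. let-7c, the member with the highest mean over the 5 libraries, was lower by CPM in the culture, at 70086 CPM, than in Thy1+, at 81792 and 92868, or Thy1-, at 142166 and 185777. In the culture against Thy1-, 1 of 8 rose and 0 fell, a share near the background, and 0 rose and 1 fell under total scaling. Between Thy1+ and Thy1-, 1 rose and 2 fell, and 2 rose and 0 fell under total scaling. The counts of this list thus turned with the scaling.

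Markers of other cell types moved with the groups as well. The mesenchymal list of 6 miRNAs, led by miR-143 and miR-199a-3p, summed to 64977 CPM in the culture, 27211 and 38089 in Thy1+, and 46252 and 30853 in Thy1-, with no member at 0. In the culture against Thy1+, 5 of 6 rose and 0 fell (median 2.66, against -0.09 for all miRNAs; background 8.94% higher), and 0 passed under total scaling (median 0.96, against -1.73 for all). Against Thy1-, 3 of 6 rose (background 18.1%), with 0 under total scaling or without either Thy1+ library. miR-199a-3p and miR-199b carry the same tags and are 1 measurement. miR-143, known from smooth muscle and fibroblasts, stood at 37950 CPM in the culture, 17369 and 18967 in Thy1+, and 29956 and 11618 in Thy1-. The sums follow miR-143 and the shared tags of miR-199a-3p and miR-199b. miR-214 was also highest in the culture, at 163 CPM there, 43.8 and 125 in Thy1+, and 83.2 and 98.0 in Thy1-. The remaining members, miR-145 and miR-199a-5p, went another way. miR-145 was lowest in the culture, at 234 CPM there, 313 and 310 in Thy1+, and 830 and 323 in Thy1-. miR-199a-5p in the culture lay within the range of the fresh libraries. The summed mesenchymal level was highest in the culture, and its values overlapped between Thy1+ and Thy1-. The part of mesenchymal cells in the miR-31 level was not tested.

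The epithelial list, the miR-200 family with miR-203 and miR-205, summed to 727 CPM in the culture, 10073 and 6287 in Thy1+, and 3017 and 2512 in Thy1-. In the culture 0 of 7 rose and 3 fell against Thy1+ (background 13.4% lower), and 6 fell under total scaling (background 34.9%). Against Thy1-, 0 rose and 3 fell (background 16.8% lower). miR-203, an epidermal miRNA, stood at 645 CPM in the culture, 8768 and 5521 in Thy1+, and 2553 and 1994 in Thy1-. The sums follow miR-203, and other members went another way. miR-200c stood at 64.4 CPM in the culture, 868 and 464 in Thy1+, and 14.9 and 38.7 in Thy1-, and was thus above Thy1- in the culture. Red blood cell miRNAs summed to 12.5 CPM in the culture, 252 and 179 in Thy1+, and 1344 and 1475 in Thy1-. White blood cell miRNAs rose in Thy1+ against Thy1- in 5 of 5 (background 20.5% higher). In the culture against Thy1+, 3 of 5 fell (background 13.4% lower), and 4 of 5 under total scaling (34.9%). miR-142-3p made up most of each white blood cell sum, and miR-155 differed from it. For miR-155, the Thy1- libraries held 9.81 and 6.72 CPM, the Thy1+ libraries 132 and 151, and the culture 92.8. The culture thus lay above both Thy1- libraries for miR-155 and below both for miR-142-3p. Against Thy1+, the log2 fold change of miR-155 was 1.05 with TMM scaling and -0.61 with total scaling. The part of blood cells in the miR-31 levels was not tested.

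Markers of germ cells differed between libraries in other ways. The embryonic stem cell cluster, known from pluripotent cells, summed to 940 CPM in the culture, 7514 and 16934 in Thy1+, and 1138 and 691 in Thy1-. Of 8 members tested, 7 rose in Thy1+ against Thy1- (background 20.5% higher). In the culture against Thy1+, 3 of the 8 fell (background 13.4% lower), and 6 fell under total scaling (34.9%). The list of meiotic and later germ cells, led by miR-34c, summed to 196386 CPM in the culture, 106896 and 23743 in Thy1+, and 49535 and 8587 in Thy1-. The sums follow miR-34c, which alone stood at 195532 CPM in the culture. miR-34b-3p and miR-34b-5p were also highest there by CPM. miR-449a was lower in the culture than in both Thy1+ libraries. miR-449b was too low to order, its 2.13 and 2.11 CPM in Thy1+ lying under the level of 3 counts there, 3.20 and 3.17 CPM. miR-449a stood at 39.3 CPM in the culture, 699 and 152 in Thy1+, and 325 and 10.4 in Thy1-. The replicates of this sum were further apart than those of miR-31, and within each fresh group they had replicate 1 above replicate 2. For miR-31 that order held in Thy1- and was the other way in Thy1+. With 2 libraries a group no conclusion is drawn from these orders. The part of meiotic and later germ cells in the miR-31 level was not tested. The gonadal miR-202 strands, known from Sertoli and other gonadal cells, summed to 173 CPM in the culture, 1138 and 2205 in Thy1+, and 18584 and 3712 in Thy1-.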

How the data were processed

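Small RNA from 5 libraries was isolated with Trizol and prepared with Illumina small RNA protocols, including v1.5, per the labels' protocols. The authors deposited raw read counts per distinct tag, each with its placements on the mature miRNAs of miRBase 12.0, allowing 2 mismatches at most. The stated tag lengths were 15 to 35 bases, and the tags span 15 to 25. The submitters' processing notes name DESeq; how adapters were removed and which aligner and build were used is not given in the sources used here.

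Each tag went to its placement with the fewest mismatches, ties split equally and sums rounded. miR-31 and miR-31* had no tied tags. Tags beginning with N, whose deposited start was a base too far for each N, were moved back. CPM are per 1000000 miRNA counts. Levels were fitted with edgeR 4.0.16 (quasi-likelihood, TMM, filterByExpr) and end shares with limma 3.58.1 on logits (offset 0.5, at least 50 counts in every library), in R 4.3.3. p-values are two-sided and adjusted by Benjamini-Hochberg over every miRNA in the test, at a threshold of 0.05. Scripts were run on simulated data with log2 level effects of 3 and 4 and less spread between replicates than here. Those runs do not show that a difference as small as that of miR-31 between the fresh fractions would be found. Intervals are exact (Poisson or Clopper-Pearson, 95%). The floor for a level was taken as 3 counts. Alternatives were DESeq2 1.42.0, limma-voom, other scalings, filters and tag assignments, libraries left out and a replicate block.

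miR-31, the lists and the tests were chosen with earlier results of these data known. Named miRNAs were miR-31, miR-31*, miR-491, the 5 nearest profiles and the 2 most abundant members of lists. miR-222, miR-210, miR-155, let-7a, other members of lists outside this rule, the mismatched 3′ end class, the substitutions and the shifted start of miR-31* were named after their values were seen. The endothelial and striated muscle lists had 0 of 2 and 1 of 3 tested members higher in culture against Thy1+ (8.94% of all miRNAs), with none lower; under total scaling these were 0 higher, and 1 striated muscle member, miR-1, was lower (34.9% of all).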

Additional observations from a re-analysis of the deposited data

How the results depend on the processing

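miR-31 in Thy1+ against Thy1- kept its direction and stayed on the same side of the threshold in all 13 alternatives (log2 0.42 to 1.62, adjusted p 0.114 to 0.660). In the culture contrasts, total count scaling gave 1.81 against Thy1+ and 3.43 against Thy1-, and leaving out a library gave 3.04 to 3.87 and 4.24 to 4.67. The number of miRNAs called over all miRNAs moved more. For Thy1+ against Thy1- it was 120, then 32 with the replicate block and 0 to 138 without a replicate, 0 being without either Thy1+ library. For culture against Thy1+ it was 105, then 173 under total scaling and 0 to 128 without a replicate. For culture against Thy1- it was 164, and 46 to 135 without a replicate. Without either Thy1+ library 80 and 85 miRNAs were higher and 32 and 23 lower at an unadjusted p under 0.05 for Thy1+ against Thy1-, by edgeR, and for culture against Thy1+ 50 and 28 were higher and 95 and 92 lower. The fresh log2 value of miR-31* ran from 0.35 without Thy1- replicate 2 to 4.54 without Thy1- replicate 1. Where 1 library is left in a group, it is assumed to vary like the others. The shifted 5′ end share, which rests on very few counts in each fresh library, turned to 0.80 with only tags placed with 0 mismatches. The mismatch share ranged from -0.49 to 0.076 without a replicate, turning without Thy1+ replicate 1, and the miR-31* share of both strands from -1.07 to 6.50 percentage points. The cause of these changes was not tested. The replicate deviations of Thy1+ and Thy1- had a correlation of -0.03 over 387 miRNAs. With 2 pairs this cannot settle whether the replicate numbers pair the libraries. With the replicate block miR-31 was at 0.98 (edgeR adjusted p = 0.348). The share of tags longer at the 3′ end was not run, since the tables hold no such tags. Depth limits miR-31* and miR-491, with 2 and 4 counts in Thy1- replicate 2.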
